A study of Mus musculus with 4 samples.

Results

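Genes that mark the intercalated cell were examined for accessible chromatin in mpkCCD cells, a mouse line with features of the other main cell of the collecting duct, the principal cell. The 10 genes were Foxi1, Slc4a1, Slc4a9, Slc26a4, Atp6v1b1, Atp6v1g3, Hepacam2, Dmrt2, Hmx2 and Oxgr1. Merging the peak lists wherever peaks shared at least 1 bp gave 560228 regions, and the 364 regions inside these genes or within 50 kb of them were taken. A region was placed at a gene end when it lay within 1 kb of either outermost end of the gene (20 regions), inside the gene when it lay elsewhere in the gene body (60) and outside otherwise (284).

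The assay was ATAC-seq, in which the transposase Tn5 cuts exposed DNA. Cells of clone 11 at passages 8 to 10 were grown to confluence on permeable supports, changed to medium free of serum and hormones, and exposed for 30 minutes to vehicle or to 0.1 nM dDAVP, which mimics vasopressin at the V2 receptor. All of them had been maintained before that in medium with dexamethasone, triiodothyronine, insulin and epidermal growth factor. There were 2 libraries per treatment, each from 50000 cells of a single immortal clone, and the labels do not say whether they came from separate cultures, so p-values measure the spread between these libraries, which may be technical.

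The collecting duct mixes principal cells, which take up water and sodium under vasopressin and aldosterone, with intercalated cells, which move acid and base. Type A intercalated cells secrete protons through a vacuolar ATPase at their apical face and return bicarbonate to the blood through the anion exchanger AE1 (Slc4a1), while type B cells secrete bicarbonate through pendrin (Slc26a4). The forkhead factor Foxi1 is the main regulator of intercalated cell fate, and kidney-restricted pump subunits are among its known targets. Both cell types descend from common precursors, and cells that carry features of both are known.

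The only values in the deposited lists are the positions of called peaks. The lists held from 205771 (dDAVP replicate 2) to 393956 peaks (vehicle replicate 1), the read depth is unknown, and where no peak is listed the chromatin may still be open below the calling threshold. Peaks were dense on chromosomes 12 and 19 and sparse on 7 and 18, which together hold 4 of the 10 genes (Slc26a4, Dmrt2, Hmx2 and Slc4a9). The region counts of each gene are therefore set beside the genes of its own chromosome, and gene-end peaks beside all protein-coding genes. The principal cell label was checked against 12 markers of that cell. Of these, 7 (Aqp2, Scnn1a, Scnn1g, Hsd11b2, Fxyd4, Elf5 and Gata3) had a gene-end peak in all 4 libraries, Aqp3, Scnn1b and the vasopressin receptor gene Avpr2 had 1 in 2 libraries, and Aqp4 and Kcnj1 had none. The 7 of 12 compare with 65.0% of all protein-coding genes, so the share of these markers was no higher than that background.

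The stretches that carry the contrast among the 10 genes are the 250 bases before the annotated starts (RefSeq, GRCm38.p6, the assembly that mm10 names), written 5′ to 3′ along the gene. The 2 that follow were the only listed starts of the 10 genes that lay under a peak in all 4 libraries. The Dmrt2 stretch is chr19:25672161-25672410 on the plus strand, and the Hmx2 stretch, at the second of 2 annotated starts, is chr7:131554043-131554292 on the plus strand.
Dmrt2: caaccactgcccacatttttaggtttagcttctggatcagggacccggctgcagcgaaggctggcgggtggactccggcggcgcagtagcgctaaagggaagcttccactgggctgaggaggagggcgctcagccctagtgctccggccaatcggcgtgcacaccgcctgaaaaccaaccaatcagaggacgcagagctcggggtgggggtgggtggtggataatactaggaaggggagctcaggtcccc
Hmx2: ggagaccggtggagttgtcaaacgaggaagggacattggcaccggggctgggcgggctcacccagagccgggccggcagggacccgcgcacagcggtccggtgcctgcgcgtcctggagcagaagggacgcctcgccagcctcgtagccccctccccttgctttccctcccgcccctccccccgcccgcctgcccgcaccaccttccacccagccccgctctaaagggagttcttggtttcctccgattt
The next 2 were under peaks in some libraries. The Foxi1 stretch is chr11:34208090-34208339 on the minus strand, and the Atp6v1b1 stretch is chr6:83742767-83743016 on the plus strand, with a forkhead motif in capitals.
Foxi1: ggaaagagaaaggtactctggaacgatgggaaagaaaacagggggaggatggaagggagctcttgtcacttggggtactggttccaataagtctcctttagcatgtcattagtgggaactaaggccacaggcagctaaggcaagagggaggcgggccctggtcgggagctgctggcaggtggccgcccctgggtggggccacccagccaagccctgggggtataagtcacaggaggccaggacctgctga
Atp6v1b1: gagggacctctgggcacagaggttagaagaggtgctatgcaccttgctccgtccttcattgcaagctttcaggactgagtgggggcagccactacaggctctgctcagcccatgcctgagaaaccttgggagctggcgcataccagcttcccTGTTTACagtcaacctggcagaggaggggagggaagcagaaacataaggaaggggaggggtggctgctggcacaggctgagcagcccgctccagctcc
The last one printed, before Atp6v1g3 at chr1:138273488-138273737 on the plus strand, had no peak in any library. The stretches before Hepacam2, Oxgr1 and the first Hmx2 start, which are not printed, had none either.
Atp6v1g3: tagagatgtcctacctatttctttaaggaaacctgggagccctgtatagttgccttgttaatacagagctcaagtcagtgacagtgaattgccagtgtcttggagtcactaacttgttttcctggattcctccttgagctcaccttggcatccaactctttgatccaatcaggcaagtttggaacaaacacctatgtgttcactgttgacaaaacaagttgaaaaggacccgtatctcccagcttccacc

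Entries were found for 8 of the 10 genes, with 9 starts in all. Peaks covered all 250 bases of the Hmx2 stretch in every library, and 250, 250, 250 and 241 bases of the Dmrt2 stretch in vehicle replicates 1 and 2 and dDAVP replicates 1 and 2. At Atp6v1b1 they covered 192, 127, 0 and 110 bases in the same order, and at Foxi1 96, 29, 0 and 0 bases. At Slc26a4, whose stretch is not printed, they covered 0, 199, 0 and 62 bases, and its GC content was 49.6%. GC content was 62.4% before Dmrt2, 70.0% before the second Hmx2 start, 58.8% before Foxi1, 59.6% before Atp6v1b1 and 44.4% before Atp6v1g3. Before Hepacam2, Oxgr1 and the first Hmx2 start, also without a peak, it was 40.4%, 48% and 49.6%. Over 21263 starts of protein-coding genes the median GC content of this stretch was 61.6% where all libraries had a peak over the start and 45.2% where none had.

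The forkhead letters TGTTTAC, on either strand, were found in 1 of the 9 promoter windows of 300 bases (250 before the start and 50 after), that of Atp6v1b1, and in 3.01% of 21263 such windows of protein-coding genes. The match lay at chr6:83742919-83742925, 98 bases before the start, and under a peak in both vehicle libraries and in dDAVP replicate 2. The motif of Tfcp2l1, a factor of collecting duct patterning, pairs CCNG with a second CCNG after a fixed spacer. It was in the windows of Foxi1, Atp6v1g3, Dmrt2 and the second Hmx2 start, against 34.7% of all windows. At Dmrt2 and Hmx2 its first match lay under a peak in all libraries, at Foxi1 in vehicle replicate 1 alone and at Atp6v1g3 in none. None of the 9 windows held the cAMP element TGACGTCA (2.23% of all windows) or the AP-1 element TGANTCA (6.99%). The looser forkhead letters TNTTTNC, which include every TGTTTAC match, were in 7 of the 9 windows and in 48.4% of all windows, and absent from those of Dmrt2 and the second Hmx2 start.

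**Figure D1:**
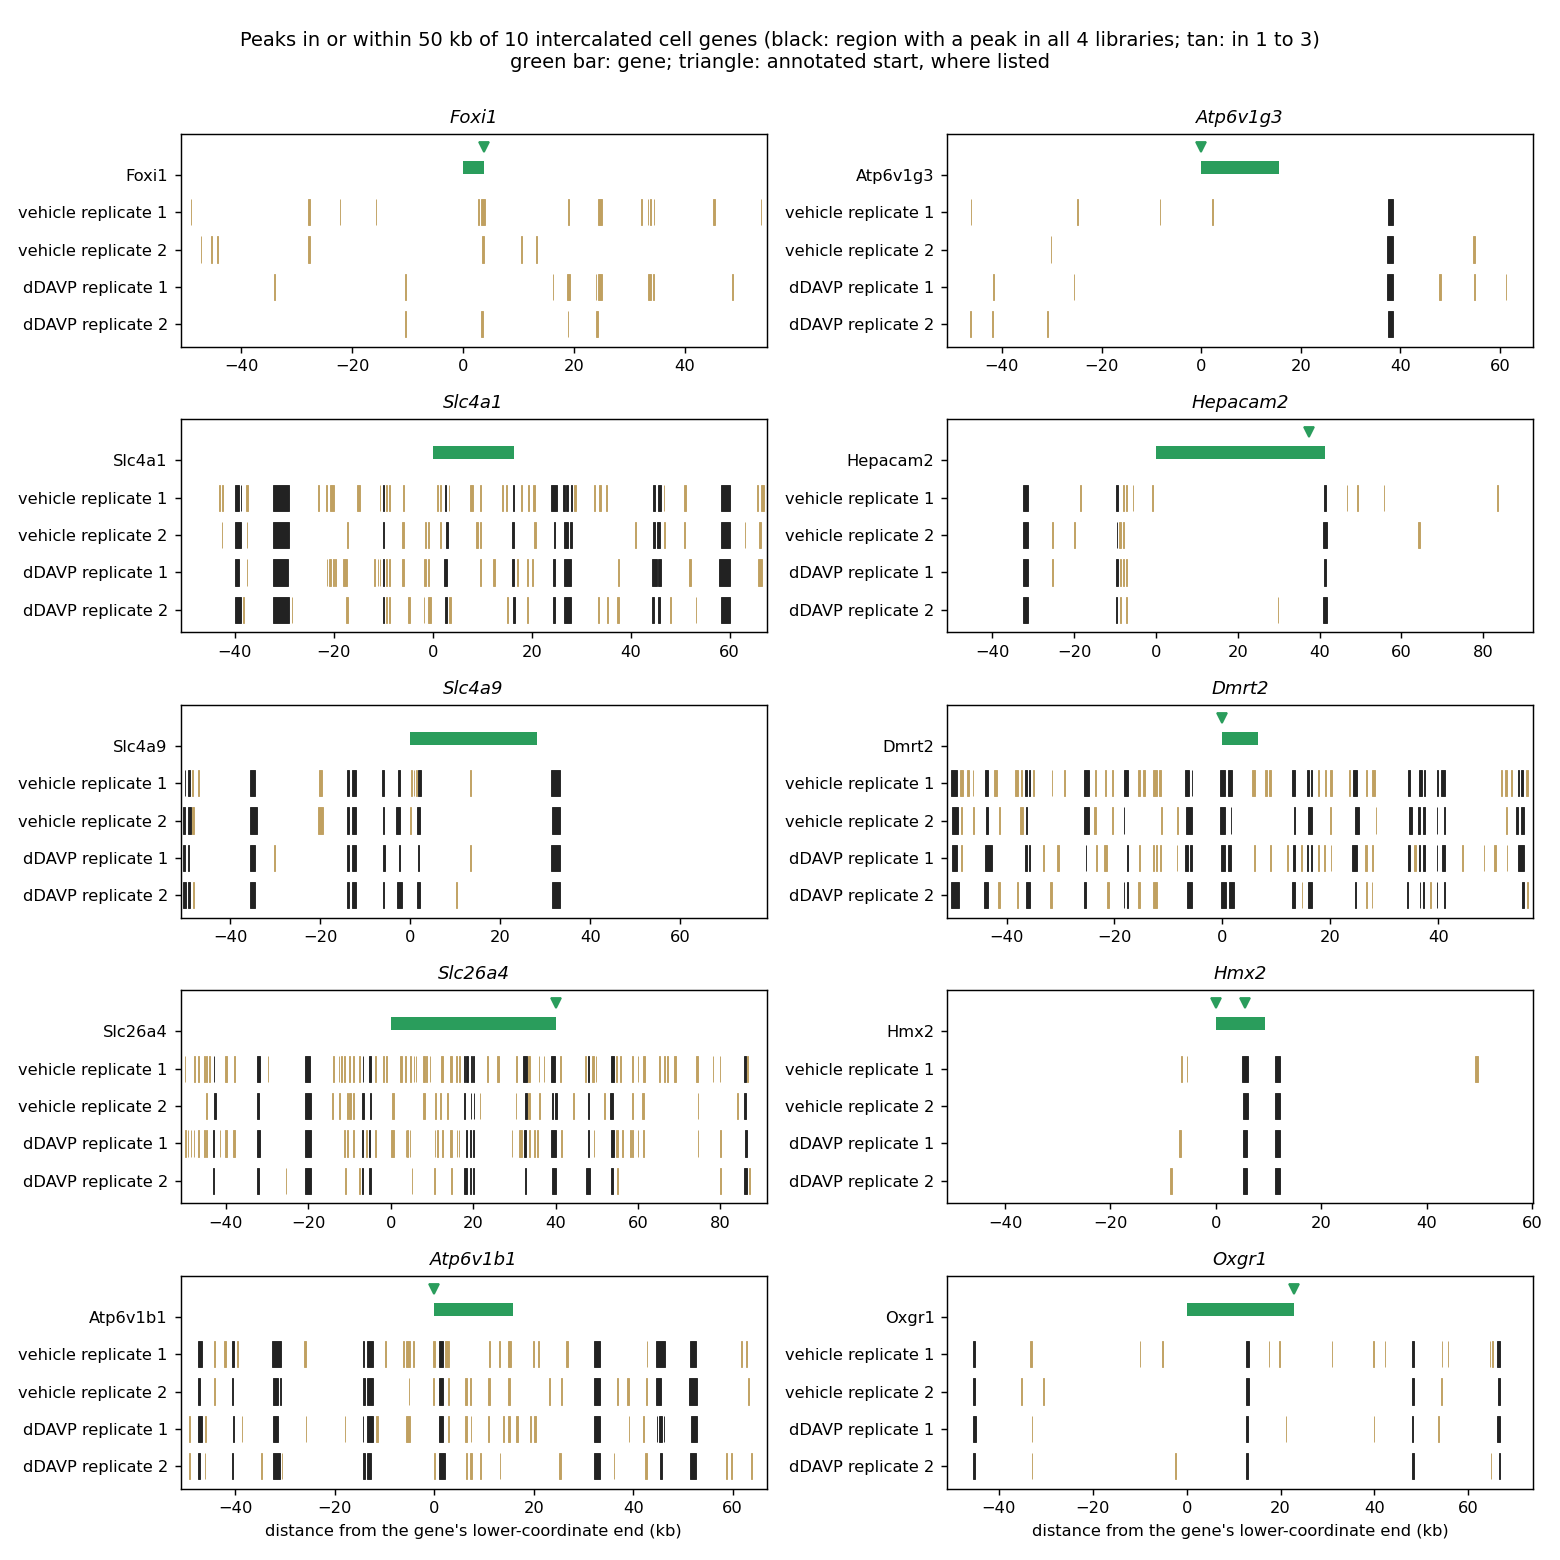
Positions of called peaks around the 10 genes, 1 panel per gene and 1 line per library, against the distance in kb from the gene's lower-coordinate end; black bars are peaks of regions present in all 4 libraries, tan bars those of regions present in 1 to 3, green bars the genes and triangles the annotated starts where listed. Dmrt2 has 17 black regions and Foxi1 has none.

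By gene ends, 5 of the 10 genes (Slc4a1, Slc26a4, Atp6v1b1, Hepacam2 and Dmrt2) had a peak in all 4 libraries, against 65.0% of 21887 protein-coding genes. Foxi1 had such a peak in 3 libraries, Slc4a9 in 2, and Atp6v1g3, Hmx2 and Oxgr1 in none. By annotated starts, 2 of 9 lay under a peak in all libraries (Dmrt2 and the second start of Hmx2), against 51.8% of all starts. Of the 364 regions, 68 (18.7%) were present in all libraries, against 15.7% of all regions (16.7% within 50 kb of a protein-coding gene). The share was 5 of 20 at gene ends, against 48.0% over the gene-end regions of all protein-coding genes. It was 9 of 60 inside the genes (15%, against 13.6%) and 54 of 284 outside them (19.0%, against 19.9%), so that inside and around the genes the shares were near the background. The 68 regions had a median mean width of 549 bp, against 467 bp for all 88231 regions present in every library.

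Among the transcription factor genes, Foxi1 (gene ID 14233, chr11:34204341-34208089) had the fewest regions present in all libraries of the 10. Of its 25 regions none was present in all libraries and 18 were in 1 library only. The median gene of chromosome 11 had 9 regions present in all libraries, and 39 of its 1609 protein-coding genes (2.42%) had none. At the start, the region at chr11:34207559-34208185 held a peak of 612 bp in vehicle replicate 1, 399 bp in vehicle replicate 2 and 417 bp in dDAVP replicate 2, and none in dDAVP replicate 1. The vehicle peaks reached 96 and 29 bases upstream of the start, whereas the dDAVP replicate 2 peak lay 114 to 530 bases into the gene. The start itself was therefore under a peak with vehicle (replicates 1 and 2) and not with dDAVP, while the region was present in both treatments. The other end region, at chr11:34207069-34207142, was in vehicle replicate 1 only (74 bp). The nearest region present in all libraries began 58679 bp downstream of the start, beyond the 50 kb window. Without dDAVP replicate 1 or without vehicle replicate 2, Foxi1 had 1 region present in all remaining libraries.

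Dmrt2 (gene ID 226049, chr19:25672394-25679013), a factor of the DM domain family found in type A cells, had the most regions present in all libraries of the 10. There were 17, against a median of 16 for chromosome 19 and 6 for all genes. With an overlap of 50% required, or with peaks at least as wide as their library's median only, 4 remained in the count, fewer than the 7 of Slc4a1 under either setting. Dmrt2 was also not first within 25 kb (8, against 10 for Slc26a4) or within 100 kb (25, against 27 for Slc4a1). The region at its start, chr19:25672034-25672985, was 901 bp wide in vehicle replicate 1, 885 bp in vehicle replicate 2, 875 bp in dDAVP replicate 1 and 816 bp in dDAVP replicate 2. The widths lay close together, and each peak spanned the start. A second region inside the gene, at chr19:25673448-25674463, measured 698, 141, 591 and 762 bp in the same order. The far end had a region in both replicate 1 libraries only (chr19:25677888-25678427, 475 bp with vehicle and 215 bp with dDAVP). Of the 15 regions outside the gene 14 lay outside every other protein-coding gene. The widest were at the end of the related gene Dmrt3 (chr19:25622136-25623508, mean 1084 bp), 5573 bp upstream of the start (chr19:25665457-25666838, 1015 bp) and 24044 bp downstream of it (chr19:25696455-25697760, 679 bp).

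Hmx2 (gene ID 15372, chr7:131548757-131558014), a homeobox gene of type B cells, had no peak in any library at either outermost end, and none over its first annotated start. Its second start lay inside the gene body, under a region at chr7:131553689-131554824 that was 1136 bp wide in vehicle replicate 1, 851 bp in vehicle replicate 2, 825 bp in dDAVP replicate 1 and 886 bp in dDAVP replicate 2. The gene-end rule does not count this start. The only other region present in all libraries was at the end of the neighbouring gene Bub3 (chr7:131559922-131560943, mean 913 bp), and the gene had 6 regions in all, against a median of 11 for chromosome 7.

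Genes related to these factors were also examined. Of 6 such genes 4, near the 65.0% of all protein-coding genes, had a gene-end peak in all 4 libraries. These were Dmrt1, Dmrt3, Hmx1 and Foxi3, with widest peaks of 995 ± 486, 1390 ± 163, 711 ± 320 and 557 ± 434 bp (mean ± SD, n = 4). Foxi2 and Hmx3 had one in both replicate 1 libraries only. Foxi3 thus had a peak at its ends in every library, and Foxi1 in 3 of 4. The Foxi3 peaks ran from 215 to 1121 bp and were widest in the replicate 1 libraries.

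Both pump genes encode subunits of the cytosolic V1 sector that are restricted to few tissues, and they differed. Atp6v1b1 (gene ID 110935, chr6:83743017-83758855), the B1 subunit, had 9 regions present in all libraries, against a median of 5 for chromosome 6. At its start a region at chr6:83742825-83743231 held peaks of 347 bp in vehicle replicate 1, 127 bp in vehicle replicate 2 and 325 bp in dDAVP replicate 2, and none in dDAVP replicate 1. The peak of vehicle replicate 2 stopped 51 bases before the start, so the start itself was under a peak in vehicle replicate 1 and dDAVP replicate 2. A wider region began 877 bases into the gene, at chr6:83743894-83745092, with 908, 804, 933 and 1196 bp in vehicle replicates 1 and 2 and dDAVP replicates 1 and 2. In vehicle replicate 2 its peak began 1051 bases into the gene, outside the 1 kb window, so that the gene-end peak of that library came from the start region and the far end. At the far end a region at chr6:83757840-83758477 was present in 3 libraries, with 587 bp and 454 bp in vehicle replicates 1 and 2 and 456 bp in dDAVP replicate 1, and another at chr6:83759442-83759769 was in dDAVP replicate 1 only (328 bp). Outside the gene the widest regions present in all libraries lay at the ends of Vax2 (chr6:83710347-83712219, mean 1344 bp) and Nagk (chr6:83794334-83795774, 1302 bp) and inside Vax2 (chr6:83729415-83730715, 1171 bp).

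Atp6v1g3 (gene ID 338375, chr1:138273738-138289462), the G3 subunit, lacked a gene-end peak in all 4 libraries. It had 12 regions in all, 8 of them in 1 library, and 1 present in all, against a median of 5 for chromosome 1. That region lay 21609 bp beyond the gene at chr1:138311071-138312345 and was 1056 bp wide in vehicle replicate 1, 1275 bp in vehicle replicate 2, 1251 bp in dDAVP replicate 1 and 1053 bp in dDAVP replicate 2. It lay outside every protein-coding gene, and each of its widths exceeded 1001.5 bp, the median width at the ends of all protein-coding genes with a gene-end peak in every library.

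Widely expressed members of the same machines were set beside them, without a test of the difference. All 17 genes of a list of common pump subunits, accessory proteins and the general anion exchanger Slc4a2 had a gene-end peak in every library, against 65.0% of all protein-coding genes. The widest peaks belonged to Atp6v1a (2344 ± 101 bp), Atp6v1d (1513 ± 45.2 bp), Atp6v0c (1461 ± 35.4 bp) and Atp6v0a2 (1439 ± 240 bp; mean ± SD, n = 4). The ubiquitous partner of Atp6v1g3, Atp6v1g1, had peaks of 1095, 1455, 1129 and 1171 bp in vehicle replicates 1 and 2 and dDAVP replicates 1 and 2, where Atp6v1g3 had none. The partner of Atp6v1b1, Atp6v1b2, had 1175, 948, 1064 and 1181 bp, against 908, 454, 933 and 1196 bp for Atp6v1b1, and the groups of 4 values overlapped. The Atp6v1b1 values mix places. The 454 bp peak lay at the far end, and the others in the region that began 877 bases into the gene. The region at the Atp6v1b1 start held 347, 127, 0 and 325 bp in the same order.

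**Figure D2:**
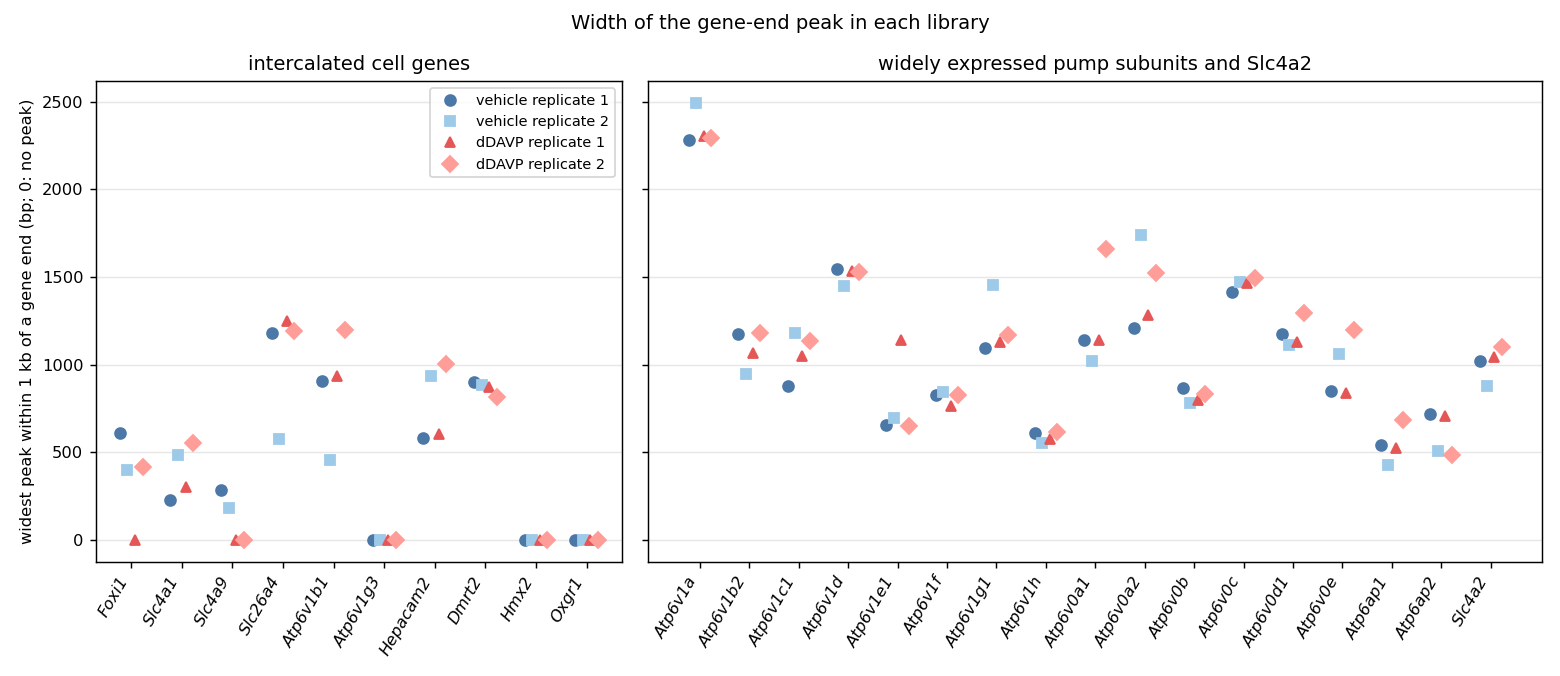
Width in bp of the widest peak within 1 kb of either gene end, in each of the 4 libraries (1 symbol per library), for the 10 intercalated cell genes and 17 widely expressed genes; 0 means that no peak was called. Every widely expressed gene is above 0 in all libraries, and Atp6v1g3, Hmx2 and Oxgr1 are at 0 in all.

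Of 20 further intercalated cell genes 12 (60%) had a gene-end peak in every library, near the 65.0% of all protein-coding genes. The widest belonged to Slc4a8, a sodium-driven chloride bicarbonate exchanger (1129 ± 151 bp), Parm1 (1136 ± 185 bp), the carbonic anhydrase gene Car2 (1051 ± 198 bp) and Tfcp2l1 (866 ± 32.5 bp; mean ± SD, n = 4). The kidney pump subunit genes Atp6v0a4 and Atp6v1c2 were among the 12, and Atp6v0d2 had one in vehicle replicate 1 only. Slc26a7 and Spink8 had none, as did 19.2% of all protein-coding genes. The remaining genes, among them Car12 and Aqp6, had a gene-end peak in 1 to 3 libraries. The median of regions present in all libraries was 6.5 per gene for the 10 members, 7.5 for these 20, 10 for the 17 widely expressed genes and 6 for all protein-coding genes.

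The 3 anion exchanger genes were all accessible in part. Slc26a4 (gene ID 23985, chr12:31519814-31560055), which encodes pendrin, had 92 regions, of which 13 were present in all libraries, against a median of 15 for chromosome 12. The region at its start, chr12:31558614-31560183, covered 1178 bp in vehicle replicate 1, 865 bp in vehicle replicate 2, 1247 bp in dDAVP replicate 1 and 1192 bp in dDAVP replicate 2. The start itself was under a peak only in the replicate 2 libraries. In the replicate 1 libraries the peaks stopped 193 bases (vehicle) and 52 bases (dDAVP) inside the gene. Further end regions were found upstream of the start in both replicate 1 libraries (chr12:31560938-31561488) and at the far end in dDAVP replicate 1 and vehicle replicate 2 (chr12:31519995-31520647, 653 and 472 bp), with one of 108 bp in vehicle replicate 1 only (chr12:31518782-31518889).

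Inside Slc26a4 there were 32 regions, more than in any other of the 10 genes, and 4 were present in all libraries. The widest, 7133 bases from the start at chr12:31551842-31552851, measured 1010 bp in vehicle replicate 1, 521 bp in vehicle replicate 2, 535 bp in dDAVP replicate 1 and 427 bp in dDAVP replicate 2. The others were narrower, at chr12:31537614-31538471 (mean 341 bp), chr12:31539058-31539523 (174 bp) and chr12:31539871-31540096. Outside it the widest were at the end of Cbll1 (chr12:31499002-31500524, 1350 bp), 13172 bp upstream of the start (chr12:31573156-31574041, 697 bp) and inside Cbll1 (chr12:31487322-31488049, 678 bp).

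Slc4a1 (gene ID 20533, chr11:102348820-102365281), which encodes AE1 and is also the main anion exchanger of red blood cells, had 58 regions. The gene had 10 present in all libraries, against a median of 9 for chromosome 11. Its gene-end region, chr11:102364763-102365483, was the narrowest of the 5 genes', with 229 bp in vehicle replicate 1, 482 bp in vehicle replicate 2, 269 bp in dDAVP replicate 1 and 550 bp in dDAVP replicate 2. The widths followed the replicate number and not the treatment. At the other end a region at chr11:102347747-102348425 was present in all but vehicle replicate 1, with 260 bp in vehicle replicate 2, 202 bp in dDAVP replicate 1 and 550 bp in dDAVP replicate 2. Regions of 213 bp (chr11:102349623-102349835) and 304 bp (chr11:102365746-102366049) were each in 1 library, vehicle replicate 1 and dDAVP replicate 1 respectively. Inside the gene, chr11:102351078-102351904 was present in all libraries (288, 377, 533 and 506 bp in vehicle replicates 1 and 2 and dDAVP replicates 1 and 2). The widest regions around it lay inside Ubtf (chr11:102316476-102319705, mean 3130 bp), at the end of Slc25a39 (chr11:102406738-102408956, 1964 bp) and 9857 bp outside the gene (chr11:102375138-102376872, 1162 bp).

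Slc4a9 (gene ID 240215, chr18:36528066-36556272), the exchanger AE4 of type B cells, had 18 regions and 9 present in all libraries, against medians of 9 and 3 for chromosome 18. Its gene-end regions were found with vehicle only, at chr18:36528128-36528587 (287 bp in replicate 1 and 181 bp in replicate 2) and chr18:36528887-36528959 (73 bp in replicate 1). The vehicle peaks of the wider region overlapped at their edges alone. Inside the gene, chr18:36529637-36530380 was present in all libraries, with 530 and 576 bp in vehicle replicates 1 and 2 and 137 and 627 bp in dDAVP replicates 1 and 2. Of the 8 such regions outside the gene, 3 were in or at the end of Hbegf or Ankhd1. The widest were at Ankhd1 (chr18:36559389-36561468, mean 2004 bp), 34102 bp outside the gene (chr18:36492479-36493964, 1177 bp) and at Hbegf (chr18:36515071-36516142, 1003 bp).

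**Figure D3:**
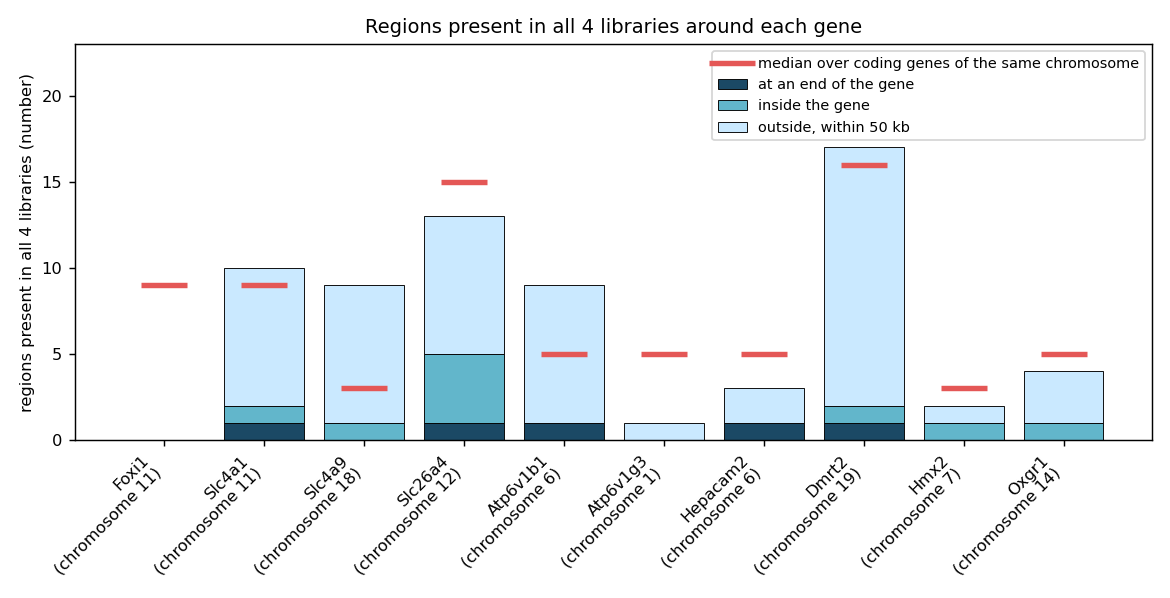
Number of regions present in all 4 libraries inside or within 50 kb of each of the 10 genes, stacked by placement, with a red line at the median over the protein-coding genes of the same chromosome. Slc4a9 has 9 against a median of 3 and Foxi1 has 0 against a median of 9.

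The last 2 genes encode membrane proteins. Hepacam2 (gene ID 101202, chr6:3457089-3498322), an immunoglobulin family gene found in intercalated cells, had 3 regions present in all libraries, against a median of 5 for chromosome 6. Its gene-end region, chr6:3497817-3498936, was 582 bp wide in vehicle replicate 1, 937 bp in vehicle replicate 2, 603 bp in dDAVP replicate 1 and 1004 bp in dDAVP replicate 2. That region also held the start of Vps50, a gene on the other strand that begins 70 bp beyond the end of Hepacam2, and it lay 3319 bp upstream of the listed Hepacam2 start, which was under no peak in any library. Which gene the region belongs to cannot be told apart by position. The far end had a peak of 198 bp in vehicle replicate 1 only (chr6:3456118-3456315). The other regions present in all libraries were 31237 bp (chr6:3424558-3425852, mean 1138 bp) and 9338 bp outside the gene (chr6:3447445-3447751).

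Oxgr1 (gene ID 239283, chr14:120019585-120042435), the receptor for alpha-ketoglutarate on type B cells, was without a gene-end peak in each library. The gene had 4 regions present in all libraries, against a median of 5 for chromosome 14. Inside it a region at chr14:120032221-120032777, 9658 bases from the start, was present in all libraries with 542 bp in vehicle replicate 1, 551 bp in vehicle replicate 2, 539 bp in dDAVP replicate 1 and 545 bp in dDAVP replicate 2. Its edges agreed over the libraries to within 8 bp on the lower side and 12 bp on the upper side, a measure chosen after the values were seen. Of 71451 regions with exactly 1 peak in each library 0.479% agreed as closely, and the median of the larger edge difference was 257 bp. The Oxgr1 region was the closest of the 57 such regions in or near the intercalated cell genes, so it is an extreme picked from that set. The median over those 57 was 295 bp, so as a set they agreed no more closely than all such regions. Outside the gene 3 regions were present in all libraries, the widest 43169 bp upstream of the start at chr14:120085604-120086304 (701, 308, 565 and 113 bp in vehicle replicates 1 and 2 and dDAVP replicates 1 and 2), and then chr14:119974144-119974689 (mean 368 bp) and chr14:120067636-120067971.

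The study was built to compare 30 minutes of dDAVP with vehicle. Of the 364 regions, 6 (1.65%) were dDAVP-only, meaning called in each dDAVP library and with vehicle in none, against 1.61% of all regions. The reverse, vehicle-only, held for 17 (4.67%), against 3.35%. All 6 dDAVP-only regions lay outside the genes, as did 284 of the 364 regions. The vehicle-only regions comprised 12 outside the genes, 4 inside them and the end region of Slc4a9. Slc4a1 and Slc26a4, with 58 and 92 regions, had 5 vehicle-only regions each. Slc4a9 and Dmrt2 had 2 each, Foxi1, Atp6v1b1 and Oxgr1 1 each, and Hepacam2, Atp6v1g3 and Hmx2 none. The sets that cross the treatments ranged from 1 to 29. Both replicate 1 libraries only held 29 (7.97%, against 8.79% of all regions). Vehicle replicate 1 and dDAVP replicate 2 only held 9 (2.47%, against 3.17%). For dDAVP replicate 1 and vehicle replicate 2 only there were 6 (1.65%, against 1.57%), and for both replicate 2 libraries only 1 (0.275%, against 1.19%). With only the widest 205771 peaks of each library, so that all lists were equally long, 9 of 278 regions were dDAVP-only and 15 vehicle-only. The shares over all regions were then 2.75% and 3.01%.

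The widest vehicle-only region lay inside Hbegf near Slc4a9 (chr18:36507526-36508630), with 695 bp in replicate 1 and 1105 bp in replicate 2. Those of the other genes were narrower, inside Slc26a4 at chr12:31527651-31528089 (373 and 439 bp), near Slc4a1 at chr11:102369103-102369590 (323 and 362 bp), near Foxi1 at chr11:34176386-34176642 (257 and 216 bp), near Dmrt2 at chr19:25634924-25635460 (109 and 537 bp), near Atp6v1b1 at chr6:83698725-83698906 (182 and 123 bp) and near Oxgr1 at chr14:120073872-120074056 (72 and 149 bp). The widest dDAVP-only region was near Atp6v1b1 at chr6:83693710-83694003 (294 and 222 bp in replicates 1 and 2). The others were near Foxi1 at chr11:34193806-34194099 (228 and 261 bp), near Slc4a1 at chr11:102386081-102386403 (74 and 264 bp), near Atp6v1g3 at chr1:138231830-138232079 (201 and 121 bp) and near Dmrt2 at chr19:25686976-25687211 (166 and 77 bp), beside a second near Atp6v1b1. With 2 libraries against 2 and no depth, these regions are described and not tested. Leaving out 1 library loosens the rule, which then asks for a peak in fewer libraries or for its absence from fewer. The counts therefore tend to rise by the rule itself. The dDAVP-only regions numbered 20 without vehicle replicate 1, 35 without dDAVP replicate 1, 13 without vehicle replicate 2 and 51 without dDAVP replicate 2, of 285, 324, 341 and 339 regions. Over all regions the dDAVP-only shares under these settings were 7.55%, 9.74%, 2.85% and 15.8%. In the same order, those of vehicle numbered 45, 39, 105 and 22, and the shares over all regions were 13.9%, 8.74%, 32.7% and 5.60%.

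**Figure D4:**
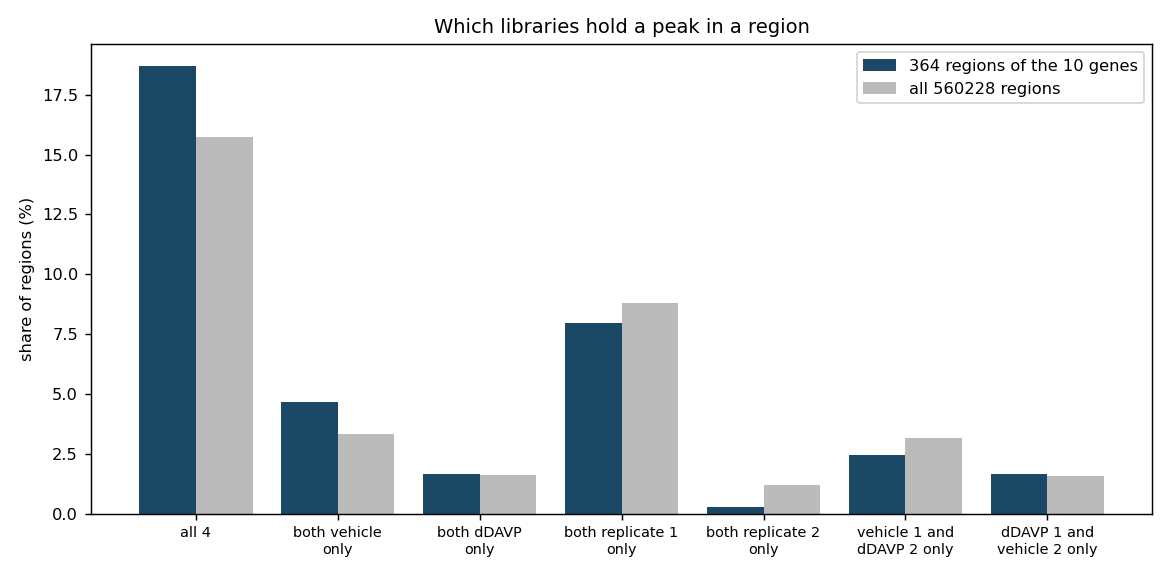
Share in percent of the 364 regions of the 10 genes and of all 560228 regions that had a peak in all 4 libraries or in exactly the pair of libraries named. The dDAVP-only shares are 1.65% and 1.61%, and the vehicle-only shares are 4.67% and 3.35%.

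The width of the regions present in all libraries gave a graded comparison. None of the 68 regions differed between treatments by limma on log2 covered width with Benjamini-Hochberg adjustment over 88231 regions (smallest adjusted p = 1.00), and none of all 88231 did (0%). At an unadjusted p under 0.05 there were 3 of 68 regions, against 4.53% of all. The log2 difference, dDAVP minus vehicle, had a median of 0.05 over the 68, with 38 wider and 30 narrower after dDAVP, against a median of 0.04 over all regions. It ran from -1.97 to 1.34. The 3 regions lay outside the genes. Near Dmrt2, chr19:25628311-25629664 measured 428 and 342 bp with vehicle and 1176 and 700 bp with dDAVP (1.34 ± 0.40, log2 difference ± SE). Near Atp6v1b1, chr6:83787632-83789432 measured 1801 and 958 bp with vehicle and 718 and 355 bp with dDAVP (-1.33 ± 0.42). At the end of Rundc3a near Slc4a1, chr11:102393033-102394022 measured 371 and 353 bp with vehicle and 974 and 573 bp with dDAVP (1.15 ± 0.44). None of the 3 passed the adjustment. The 5 gene-end regions differed by -0.01 to 0.35 on the log2 scale.

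In each library, from 135 to 247 of the 364 regions had a peak, 247 in vehicle replicate 1, 149 in vehicle replicate 2, 195 in dDAVP replicate 1 and 135 in dDAVP replicate 2. These were 67.9%, 40.9%, 53.6% and 37.1% of the 364, and the same libraries had a peak in 68.6%, 35.5%, 50.3% and 35.4% of all regions. The number of these genes with a gene-end peak was 7 in each vehicle library, 5 in dDAVP replicate 1 and 6 in dDAVP replicate 2. Over all protein-coding genes the share with one was 78.2% and 70.0% in vehicle replicates 1 and 2 and 74.2% and 69.4% in dDAVP replicates 1 and 2. The difference between the vehicle and dDAVP libraries rested on Foxi1 and Slc4a9.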

How the data were processed

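Peak lists of 4 libraries were analysed, 2 per treatment, grouped and numbered from the sample titles. Per the labels, libraries of 50000 cells were read as pairs of 50 bases. MACS2, Bowtie2, cutadapt, Picard, SAMtools and bedtools are named in the submitters' processing notes, with the build mm10. Versions, the peak threshold, the handling of duplicates and any Tn5 offset were not given in the sources used here. Each library has 1 deposited list made by the authors with 3 columns (chromosome, start and end), so the deposited values are positions, with no score or depth. A deeper library can yield more and wider peaks.

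Peaks were merged at an overlap of 1 bp, with touching peaks kept apart, and coordinates are 1-based. Genes and starts came from RefSeq tables on GRCm38.p6. All 10 genes matched the gene table, which holds no exons, so exons and introns were not separated. Covered bases per library and region were put on the log2 scale, quantile normalized and fitted across all regions with limma 3.58.1 (R 4.3.3), with a trend and without a replicate term, at an adjusted p of 0.05. The merging was run on simulated peaks at widely spaced sites, so crowded or chained peaks were not tested. The fit was run on simulated widths with known changes.

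The members and lists were chosen with earlier results of these data known. By rule the text names all 10 genes, every gene-end region, the widest internal and distal regions of each gene among those in all libraries (at most 3 of each), its widest region of either treatment alone, and at most 4 genes per list that had gene-end peaks in every library and 4 that had none. Other names (the fourth internal region of Slc26a4, Atp6v0a4, Atp6v1c2, Atp6v0d2, Car12, Aqp6, Atp6v1g1, Atp6v1b2, Foxi2, Hmx3, the principal cell markers and the 3 regions with the smallest p) were chosen after their values were seen. Alternatives covered the overlap, which peaks enter, the windows, the fit and leaving out each library.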

Additional observations from a re-analysis of the deposited data

How the results depend on the processing

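Peak lists without scores or depth limit every comparison to called positions, and 2 libraries against 2 leave little power. The 5 genes with gene-end peaks in every library became 4 to 7 under the alternatives (4 by annotated starts alone, which 8 genes have). The share of all protein-coding genes was not computed under these alternatives, so the 4 to 7 have no background. With the narrower part of each list, below its median width, left out there were 199 regions around the genes. Of these 38 were in all libraries, 3 dDAVP-only and 8 vehicle-only, against 15.8%, 1.74% and 3.36% of all regions under that setting. With only the widest 205771 peaks of each library, the same number in each, there were 278 regions. Among them 55 were in all libraries, 9 dDAVP-only and 15 vehicle-only, against 16.7%, 2.75% and 3.01% of all regions under that setting. With an overlap of 50% of both peaks 37 of 512 regions were in all libraries and 10 were dDAVP-only. The shares over all regions were then 6.09% and 1.54%. A distance of 25 kb gave 225 regions, 39 in all libraries, 3 dDAVP-only and 10 vehicle-only. With 100 kb there were 586 and 118, since the window changes. The shares over all regions do not depend on the distance and stayed at 15.7% in all libraries, 1.61% dDAVP-only and 3.35% vehicle-only. The rule for a treatment-only region is looser when a library is left out, as fewer libraries must then hold or lack a peak. Leaving out 1 library gave 13 to 51 dDAVP-only and 22 to 105 vehicle-only regions and 0 to 18 width calls among all regions. The 18 came without dDAVP replicate 2, with 1 dDAVP library assumed to vary like the others, and none was among the 10 genes. In every fit run no region of the 10 genes was called. Nothing in the labels ties equal replicate numbers together. With a replicate block 0 regions were called, as without it, and the deviations of the replicate 1 libraries from their treatment means correlated at 0.0969 over 88231 regions. Of 90 counts of regions present in all libraries for single genes under the alternatives, 71 stayed within 1.5 times. Foxi1 went from 0 to 1 without dDAVP replicate 1 or vehicle replicate 2 and with 100 kb. Dmrt2 went from 17 to 4 with 50% overlap or without the narrower peaks, and Slc26a4 from 13 to 5 and 8.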
